A study of Mus musculus with 36 samples.

Results

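The comparison was between liver tumours named for the drivers AKT and NRAS (Tu_AKTNRAS, 4 samples) and PBS control liver (PBS_only, 3 samples), which together made up 7 of the 36 samples of the study. Members were the arrays whose signal columns carry these names. All mice were of strain FVB/n, and each sample was total liver or tumour RNA on 1 single-color bead array. The AKT-NRAS tumours had no further treatment, while the other tumour groups included DDC and CCl4 treatment. The labels give no sex, age, time of tumour growth, route of delivery or form of the driver genes. Nothing in them states that the samples within a group are different animals, so p-values reflect the spread between samples only. Untreated tumours of the group Tu_AKTCAT (4 samples) served to ask whether a change differed between drivers, and the labels do not spell out the second driver's abbreviation. Slide and group cannot be told apart, because all Tu_AKTNRAS arrays lay on slide 4 and all PBS_only arrays on slide 1.

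RAS proteins pass growth signals to the MAPK kinase cascade, and AKT kinases carry the insulin and growth factor signal to glucose and lipid metabolism. Together these pathways are a widely used way to drive liver tumours in mice. A normal hepatocyte secretes plasma proteins, makes bile acids and urea, and detoxifies foreign compounds through cytochrome P450 enzymes, with the tasks divided between the portal and central ends of the liver lobule.

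Tu_AKTNRAS arrays detected 12586 to 13101 of the 25697 probes, and PBS_only arrays 10969 to 11100. The median signal before normalization was 46.2, 11.7, 27.7 and 33.2 units in the 4 tumours and 10.3 to 11.3 units in the PBS livers. Arrays of a group correlated at 0.976 to 0.989 in Tu_AKTNRAS and at 0.969 to 0.98 in PBS_only, and across the groups at 0.856 to 0.892. All 7 samples carried liver transcripts: *Alb*, the serum albumin gene, read 9.97, 9.22, 9.35 and 9.88 (normalized log2 intensity, the scale of every level below) in Tu_AKTNRAS and 8.74, 9.18 and 8.82 in PBS_only, and did not pass the test (adjusted p = 0.129). It was called higher under 3 alternatives, at 1.39 with median scaling (adjusted p = 0.00493).

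Of the driver genes, *Nras* read 11.80, 11.61, 11.81 and 11.43 in Tu_AKTNRAS, against 10.23, 9.94 and 10.04 in PBS_only, a log2 fold change of 1.59 ± 0.16 (± is the standard error of the fit throughout; adjusted p = 1.22e-09). *Akt1* was not well above background on any of the 7 arrays. The files do not say whether either probe reads an introduced gene, so neither checks the labels fully. *Ctnnb1*, which encodes beta-catenin, was also higher, at 12.45, 12.86, 12.52 and 12.64 in Tu_AKTNRAS and 10.96, 10.65 and 10.60 in PBS_only.

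Of 10765 genes tested, 5387 (50.0%) passed an adjusted p of 0.05, 2821 (26.2%) higher and 2566 (23.8%) lower in Tu_AKTNRAS. The values of the groups did not overlap in 5738 genes (53.3%), with the tumours above in 3086 (28.7%) and below in 2652 (24.6%). Most list members named below were picked for a large called change, so lack of overlap in them follows partly from that choice. More than 2-fold, 1665 were higher and 1264 lower. More than 16-fold, 77 were higher and 34 lower. These directions are relative to a quantile normalization that gives every array the same distribution. With arrays scaled only to their medians, the median log2 fold change over all genes was 0.387 and the called genes split into 4435 higher and 1356 lower, so 76.6% instead of 52.4% of them were higher. Where this scaling, or leaving out 1 array, moved a list's count of 4 or more against PBS_only by over 1.5 times, that count follows. Of the 42 counts of 3 or fewer, 26 moved that far under at least 1 alternative. List counts against Tu_AKTCAT were not run under the alternatives, so their stability was not tested. The lists below hold 801 genes, of which 701 had a probe, 619 were tested and 391 were called. Medians of a list are log2 fold changes over its tested members, and the median over all genes tested was 0.006. In bulk RNA, fewer cells of a type and less RNA per cell cannot be told apart.

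Genes were ranked here only if called and without overlap between tumour and PBS values, and 11 of the 15 with the largest rises were not well above background in any PBS liver. *Spink1*, a secreted trypsin inhibitor, read 13.28, 13.15, 13.31 and 12.92 in Tu_AKTNRAS and was not well above background in any PBS_only array (4.56, 4.94 and 4.72). This is at least 213-fold higher (adjusted p = 9.17e-14). *Tspan8*, a tetraspanin of epithelial membranes, read 13.24, 13.07, 12.94 and 12.56 against 4.67, 4.80 and 4.59, at least 184-fold higher. *Afp*, the fetal plasma protein alpha-fetoprotein, read 11.13, 12.31, 11.48 and 11.57 against 4.50, 4.56 and 4.53, at least 73.0-fold higher. The 4 tumours lay close together in these genes. Their separation from the PBS livers was a condition of the ranking. Bounds for others of the 15 largest rises were at least 73.5-fold for *Nipal2* (a predicted magnesium transporter), 63.3-fold for *Akr1c18* (a progesterone-inactivating reductase), 52.8-fold for *Timp1* (a metalloproteinase inhibitor) and 43.4-fold for *Asns* (asparagine synthetase). *Arhgap44* rose at least 47.4-fold. Of the whey acidic protein family of protease inhibitors, *Wfdc18*, *Slpi* and *Wfdc3* rose at least 39.2-fold, 31.5-fold and 30.4-fold. *Ly6d*, *Ubd*, *Cyp1b1* and *Lcn2* were above background on at least 1 PBS array and rose by 7.23 ± 0.51, 5.89 ± 0.47, 5.88 ± 0.71 and 5.74 ± 0.52 on the log2 scale. *Ubd* encodes the ubiquitin-like FAT10, and *Lcn2* the iron-siderophore binding protein lipocalin 2.

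The 15 largest falls were chosen under the same condition. *A1bg*, which encodes a plasma glycoprotein, read 4.92, 4.60, 4.68 and 7.19 in Tu_AKTNRAS, against 13.15, 12.91 and 12.34 in PBS_only, a change of -7.45 ± 0.71. It was above background in 1 of 4 tumours. *Cyp7a1*, the rate-limiting enzyme of bile acid synthesis, read 8.20, 4.79, 7.27 and 7.74 against 12.41, 13.04 and 13.33, a change of -5.93 ± 0.46 (adjusted p = 6.30e-12). *Nr1i3*, the xenobiotic receptor CAR, read 6.47, 4.70, 4.74 and 5.75 against 10.99, 11.09 and 10.61, a change of -5.48 ± 0.42. Its classical target *Cyp2b10* changed by -5.59 ± 0.92. The remaining falls of this size were in *Upp2* (uridine phosphorylase, -5.97), *Acot3* (a peroxisomal thioesterase, -5.61), *Hamp2* (a hepcidin paralogue, -5.44), *Macrod1* (-5.28), *Cyp2b13* (-5.13), *Slc22a26* (-5.04), *Ces1e* (a carboxylesterase, -4.92), *Rgs16* (a regulator of G protein signalling, -4.69), *Dct* (-4.66), *Inmt* (-4.63) and *Cux2* (-4.63). *Cux2* was not well above background in any tumour and was at least 21.5-fold lower. *Acot3*, *Cyp2b13* and *Cux2* are on the female-biased list described below. Probes of near-identical relatives, such as the *Cyp2b*, *Cyp2c*, *Hamp*, *Mup*, *Gsta* and H2 genes, may read more than 1 member.

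**Figure D1:**
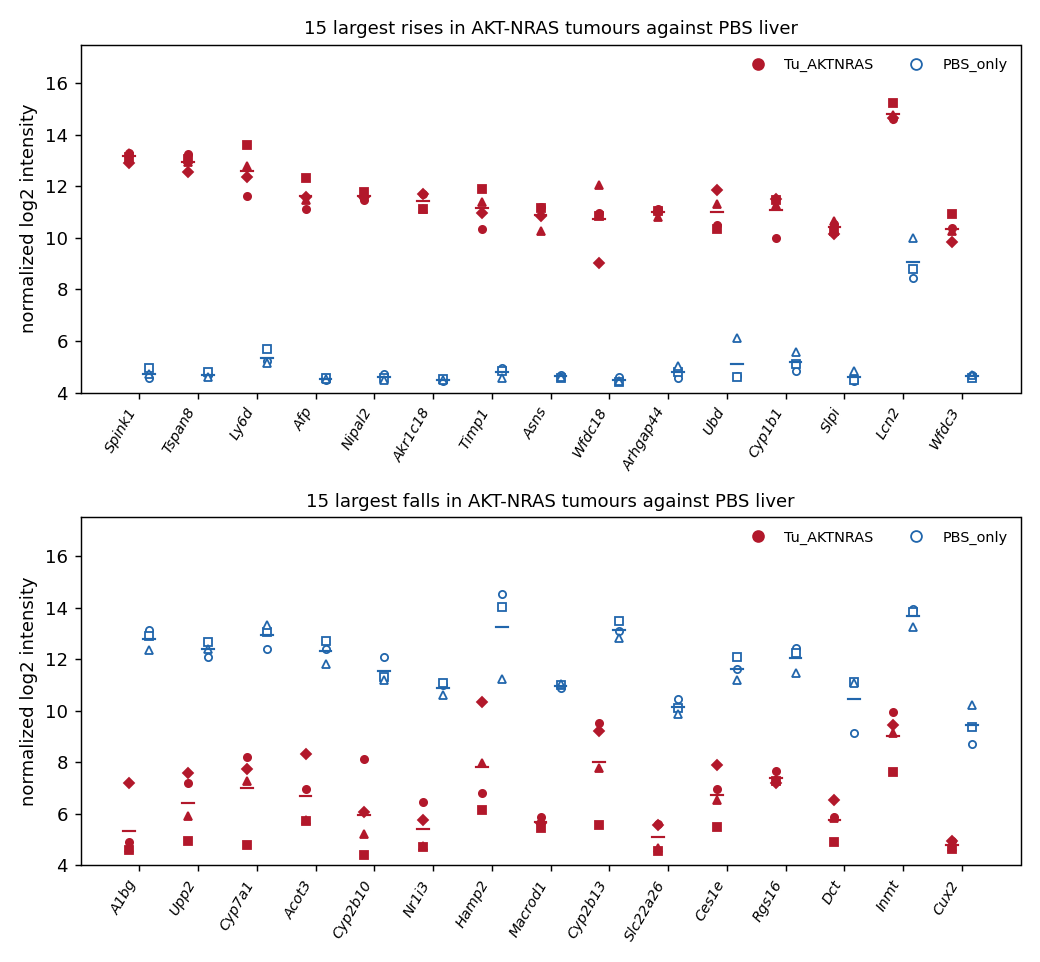
Normalized log2 intensity of the 15 largest rises (upper panel) and 15 largest falls (lower panel), with Tu_AKTNRAS filled and left of PBS_only, 1 marker shape per replicate number and a line at the group mean. The genes were chosen among those whose values do not overlap between the groups, and *Hamp2* spans 6.15 to 10.35 among the tumours.

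Of the RAS/MAPK output list, 18 of 25 genes were tested, 10 were higher and 3 lower, with a median of 0.96. *Dusp4*, a phosphatase that switches MAP kinases off, read 7.45, 8.70, 7.51 and 7.71 in Tu_AKTNRAS and was not well above background in PBS_only (4.66, 4.50 and 5.04), at least 5.32-fold higher. *Etv4*, an ETS transcription factor downstream of MAPK, read 7.16, 7.82, 7.51 and 7.81 against 4.39, 4.68 and 4.78, at least 4.42-fold higher. *Ier3*, an immediate early gene, rose by 3.40 ± 0.54, and *Egr1* by 1.80 ± 0.47 with 1 PBS liver (10.93) inside the tumour range. *Phlda1* fell by 2.57 ± 0.47 and the feedback inhibitor *Spry4* by 1.04 ± 0.27. With median scaling *Spry4* lost its call (-0.43, adjusted p = 0.134). *Myc* was not well above background on any of the 7 arrays. Without PBS_only replicate 2 the higher count was 5 of these genes, and with median scaling the lower count was 1. In a direct test against Tu_AKTCAT, in which 20.6% of all genes were higher and 16.9% lower in Tu_AKTNRAS, 10 list members were higher and 0 lower.

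The insulin, AKT and FOXO1 output genes had no common direction. Of 16 tested, 3 were higher and 5 lower, with a median of -0.73. In all 50% were called, which is the share over all genes (50.0%). The lower count was 2 with median scaling and 3 without PBS_only replicate 1. *Irs2*, an insulin receptor substrate, read 7.62, 7.18, 6.79 and 6.76 in Tu_AKTNRAS, against 10.67, 8.58 and 8.50 in PBS_only, and *Klf15* 6.17, 6.09, 6.12 and 6.03 against 7.58, 7.5 and 7.45. *Irs2* lost its call without PBS_only replicate 1 (adjusted p = 0.0823) and *Klf15* with median scaling (adjusted p = 0.0626). The gluconeogenic *G6pc* read 11, 10.38, 10.40 and 10.25 in Tu_AKTNRAS and 14.15, 12.99 and 10.10 in PBS_only, and did not pass (adjusted p = 0.0786), with 1 PBS liver below all tumours. Without that liver, PBS_only replicate 3, the change was -3.06 ± 0.93 and was called (adjusted p = 0.00832), against -1.90 with it. *Igfbp1*, an insulin-repressed binding protein of IGFs, was higher, at 9.42, 9.6, 7.63 and 7.12 against 7.07, 5.16 and 4.55, and lost its call without PBS_only replicate 3 (adjusted p = 0.0573).

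Cell cycle genes rose together. For DNA replication and the G1/S step, 17 of 21 tested genes were higher and 1 lower, with a median of 1.37, and for mitosis and G2/M 13 of 16 were higher and 0 lower, with a median of 1.91. *Uhrf1*, which keeps DNA methylation through replication, read 10.12, 9.99, 10.32 and 10.10 in Tu_AKTNRAS, against 5.22, 5.75 and 6.72 in PBS_only, a rise of 4.23 ± 0.50. *Cdc20*, an activator of the anaphase-promoting complex, read 9.59, 8.69, 9.42 and 8.93 against 5.98, 4.58 and 4.66. *Prc1*, a spindle midzone protein, read 10.08, 9.40, 10.02 and 9.74 against 6.17, 5.43 and 5.70. All tumours lay above all PBS livers in these 3 genes, as in 28.7% of all genes. *Plk1*, a mitotic kinase, was at least 8.28-fold higher and *Nusap1* at least 9.82-fold. *Tk1*, thymidine kinase, went the other way and fell by 2.53 ± 0.30. Against Tu_AKTCAT, 5 of 21 G1/S genes and 1 of 16 G2/M genes were higher in Tu_AKTNRAS, where 20.6% of all genes were higher. In either list 0 were lower, where 16.9% of all genes were lower.

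To show the sequence context of these genes, the promoter table of RefSeq (GRCm38.p6, 250 bases before to 50 after each gene start) was searched on both strands for the letters of an E2F-type element, TTTNGCGC, and of a cell cycle homology element, TTTGAA. The E2F-type letters occurred in 1.38% of 32851 promoters and in 7 of 20 G1/S genes with a promoter. Of the 7, 5 were called higher, as were 14 of the 20. The TTTGAA letters occurred in 17.9% of all promoters and in 13 of 19 G2/M genes. Of the 13, 9 were called higher, as were 12 of the 19. A list gene was counted if any of its promoters matched, so gene counts and promoter shares are not in the same unit. Stretches around a match are shown 5′ to 3′ on the gene's strand, for the called genes with the largest rises, with the matched letters in capitals. The stretches are of *Uhrf1* at chr17:56304092-56304171 (plus strand), *Mcm5* at chr8:75109324-75109403 (plus strand), *Mcm6* at chr1:128359709-128359788 (minus strand), *Cdc20* at chr4:118437344-118437397 (minus strand) and *Prc1* at chr7:80294410-80294475 (plus strand). The *Mcm5* stretch holds matches on both strands that overlap.
Uhrf1: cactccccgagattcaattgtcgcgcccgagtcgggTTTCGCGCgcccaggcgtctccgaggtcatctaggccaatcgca
Mcm5: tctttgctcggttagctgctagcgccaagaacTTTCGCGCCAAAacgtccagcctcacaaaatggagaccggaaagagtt
Mcm6: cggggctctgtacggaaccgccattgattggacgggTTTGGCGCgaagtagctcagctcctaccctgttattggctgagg
Cdc20: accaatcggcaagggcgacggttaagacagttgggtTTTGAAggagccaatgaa
Prc1: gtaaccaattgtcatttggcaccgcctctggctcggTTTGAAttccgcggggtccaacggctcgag
Of the replication helicase genes shown, *Mcm5* rose by 1.47 ± 0.43 and *Mcm6* by 1.39 ± 0.58 (adjusted p = 0.0452), calls that were lost under 1 and 8 of 18 alternatives. A match of letters is a description and not a measured binding site.

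Inhibitors of the cell cycle were also higher. Of the p53 target and senescence list, 12 of 17 tested genes were higher and 0 lower, with a median of 1.28. *Cdkn2b*, the p15 inhibitor of cyclin D kinases, read 9.06, 10.12, 9.66 and 10.83 in Tu_AKTNRAS and was not well above background in PBS_only (4.86, 4.51 and 4.66), at least 22.4-fold higher. *Cdkn2a*, the p16 and p19Arf locus, read 6.18, 8.34, 7.16 and 7.95 against 5.17, 4.65 and 4.58, at least 3.94-fold higher. *Cdkn1a*, the p21 inhibitor, read 11.72, 11.90, 11.87 and 11.70 against 9.90, 7.75 and 7.11, a rise of 3.54 ± 0.43. None of the 3 overlapped between groups, as in 53.3% of all genes, although 1 PBS liver stood above the others in *Cdkn1a*. *Phlda3*, a p53 target that restrains AKT, rose by 3.65 ± 0.41 and *Plk2* by 3.23 ± 0.31.

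Amino acid and serine synthesis genes under the stress factor ATF4 were higher in 9 of 19 tested cases and lower in 1, with a median of 0.84. *Asns* read 11.20, 11.18, 10.26 and 10.85 in Tu_AKTNRAS, against 4.69, 4.58 and 4.61 in PBS_only. *Psat1*, an enzyme of serine synthesis, read 10.61, 10.75, 9.68 and 10.48 against 5.19, 4.50 and 4.96, at least 30.9-fold higher. The hormone gene *Fgf21* rose by 3.44 ± 0.59 and the glutathione-degrading *Chac1* by 2.01 ± 0.49. In *Asns* and *Psat1* tumour 3 was the lowest of the tumours, still far above every PBS liver. *Mthfd2*, of mitochondrial folate metabolism, was at least 4.52-fold higher, while *Shmt2* of the same pathway fell by 2.02 ± 0.23. *Ddit3* and *Trib3*, other known ATF4 targets, changed by -0.71 and 0.23 and did not pass.

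The letters of a C/EBP-ATF response element, TGATGNAA on either strand, were in 3.97% of all promoters. They were in 6 of the 19 genes of this list with a promoter. Of the 6, 3 were called higher, the genes shown here, as were 8 of the 19. Here too a gene counted if any of its promoters matched, which is not the unit of the promoter share. *Asns* is at chr6:7693210-7693268 (minus strand), *Fgf21* at chr7:45615586-45615665 (minus strand) and *Chac1* at chr2:119351013-119351092 (plus strand), with the match in capitals.
Asns: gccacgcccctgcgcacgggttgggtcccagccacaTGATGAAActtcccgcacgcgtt
Fgf21: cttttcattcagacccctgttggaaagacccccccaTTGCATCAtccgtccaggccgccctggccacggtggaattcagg
Chac1: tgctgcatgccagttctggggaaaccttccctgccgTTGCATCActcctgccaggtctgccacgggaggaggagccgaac
The *Asns* match lay 23 to 16 bases before the start, on the gene's strand, and those of *Fgf21* and *Chac1* lay 139 to 132 and 193 to 186 bases before it, on the opposite strand.

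In glucose metabolism, 8 of 19 tested glycolysis, pentose phosphate and hypoxia genes were higher and 3 lower, with a median of 0.39. *Pfkp*, the platelet phosphofructokinase, read 7.07, 9.12, 7.53 and 7.76 in Tu_AKTNRAS, against 5.60, 4.36 and 4.52 in PBS_only. *Slc2a1*, the glucose transporter GLUT1, read 9.87, 11.40, 10.08 and 9.17 against 8.99, 8.67 and 8.78, a rise of 1.32 ± 0.38. The oxygen-regulated *Egln3* read 9.50, 11.73, 9.65 and 8.69 against 7.48, 7.73 and 8.04. Tumour 2 was the highest tumour in all 3. *Hk3* and *Pdk1* fell by 2.63 ± 0.33 and 2.10 ± 0.23.

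Genes of fat synthesis were split. Of 17 tested fatty acid synthesis genes 3 were higher and 7 lower, with a median of -0.27. *Thrsp*, a lipogenic regulator, read 10.34, 10.93, 10.42 and 10.74 in Tu_AKTNRAS, against 13.34, 13.18 and 13.47 in PBS_only, and *Mlxipl*, the carbohydrate-responsive factor ChREBP, 9.42, 9.98, 9.64 and 9.73 against 11.56, 11.27 and 11.11. The groups did not overlap in either gene, and tumours lay below all PBS livers in 24.6% of all genes. *Scd2*, a desaturase, rose by 2 ± 0.45, while *Acaca*, *Acly* and *Scd1* changed by -0.27, 0.17 and 0.60 and did not pass. Against Tu_AKTCAT, 7 of these genes were lower in Tu_AKTNRAS and 0 higher, where 16.9% and 20.6% of all genes were. Of 16 tested cholesterol synthesis genes 3 were higher and 6 lower. The higher count was 5 with median scaling and 1 without Tu_AKTNRAS replicate 4, and the lower count was 2 with median scaling and 3 without any one of PBS_only replicate 3 and Tu_AKTNRAS replicates 1 and 3. *Sqle*, squalene epoxidase, rose by 1.38 ± 0.28 and *Pmvk* fell by 2.09 ± 0.25.

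Lipid droplet genes rose in 7 and fell in 5 of 18 tested cases, with 4 higher without PBS_only replicate 3 and 3 lower with median scaling. *Hilpda*, an inhibitor of fat breakdown, read 10.08, 11.12, 10.20 and 10.62 in Tu_AKTNRAS, against 7.27, 6.75 and 6.59 in PBS_only. *Plin3*, a droplet coat protein, rose by 2.24 ± 0.25, and *Dgat2*, which makes triglyceride, fell by 1.37 ± 0.17. Fatty acid oxidation and ketogenesis genes were lower in 11 and higher in 1 of 16 tested cases, with a median of -0.99. *Ppara*, the nuclear receptor that drives this pathway, read 6.29, 6.29, 5.72 and 6 against 8.92, 8.58 and 7.83. Its targets *Cyp4a14* and *Ehhadh* fell by 3.91 ± 0.76 and 2.65 ± 0.39. *Hadhb*, of the mitochondrial trifunctional protein, was the member that rose, by 1.05 ± 0.20.

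Detoxification and bile acid genes fell in most cases. Of 19 tested cytochrome P450 genes 17 were lower and 1 higher, with a median of -2.20. *Cyp2c37* read 12.86, 7, 10.19 and 12.13 in Tu_AKTNRAS, against 14.60, 14.86 and 14.35 in PBS_only. *Cyp1a2*, an enzyme of pericentral hepatocytes, read 11.10, 6.49, 8.68 and 9.99 against 13.50, 13.44 and 13.74. *Cyp2b13* read 9.51, 5.55, 7.76 and 9.21 against 13.11, 13.47 and 12.82. Every tumour was below every PBS liver, as in 24.6% of all genes, and tumour 2 was the lowest in all 3 genes. *Cyp2d9*, which is male-biased, was the member that rose, and *Cyp2b13* is on the female-biased list below. Of 17 tested bile acid synthesis and transport genes 14 were lower and 0 higher, with a median of -1.56. *Cyp8b1*, which sets cholic acid output, read 9.03, 6.05, 9.09 and 9.24 against 13.12, 12.40 and 12.08. The alternative-pathway enzymes *Cyp7b1* and *Cyp27a1* fell by 2.78 ± 0.31 and 2.50 ± 0.32, and the canalicular sterol transporter *Abcg8* by 3.23 ± 0.46.

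Both ends of the lobule were affected. Of 14 tested periportal genes 9 were lower and 0 higher, with a median of -1.22, and of 21 pericentral and Wnt target genes 13 were lower and 2 higher, with a median of -1.54. *Ass1* and *Asl*, consecutive enzymes of the urea cycle, fell by 2.78 ± 0.38 and 2.93 ± 0.44, and 6 of 8 urea cycle genes were lower in all. The amino acid transporter *Slc1a2* of the pericentral rim read 8.01, 4.88, 6.24 and 7.63 in Tu_AKTNRAS, against 10.30, 11.10 and 11.33 in PBS_only. *Notum*, a secreted Wnt inhibitor and Wnt target, read 6.16, 5.01, 5.22 and 5.48 against 9.28, 9.10 and 8.92. Neither gene overlapped between the groups, as in 53.3% of all genes. *Glul*, glutamine synthetase, did not pass (-0.45 ± 0.51), with a probe above background in 3 of 4 tumours and 2 of 3 PBS livers, and *Cldn2* rose by 2.25 ± 0.31. Against Tu_AKTCAT, 17 of the 21 pericentral genes were lower in Tu_AKTNRAS and 1 higher, where 16.9% and 20.6% of all genes were.

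Secreted plasma proteins were mostly not called, and those called were lower. Of 22 tested hepatocyte plasma protein and identity genes 8 were lower (36.4%, against 23.8% of all genes) and 0 higher, with a median of -0.25. The lower count was 5 when only the compared groups were fitted or only their arrays were normalized. *Hpd*, of tyrosine breakdown, fell by 4.37 ± 0.50, while *Apoa1*, *Ahsg*, *Fga* and *Serpina1a* changed by -0.09, -0.23, 0.02 and -0.07 and did not pass. Of 20 hepatocyte transcription factors and nuclear receptors 10 were lower and 2 higher. *Cebpa*, a factor of hepatocyte maturity, read 6.42, 6.36, 6.52 and 6.65 in Tu_AKTNRAS, against 8.91, 9.13 and 8.60 in PBS_only. *Rxra*, the shared partner of many nuclear receptors, read 6.72, 6.67, 6.64 and 6.51 against 8.64, 8.77 and 8.98. In both genes every tumour was below every PBS liver, as in 24.6% of all genes. *Foxa1* rose by 1.01 ± 0.26. *Hnf4a* was higher by 0.57 ± 0.20 and lost this call under 2 of 18 alternatives.

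**Figure D2:**
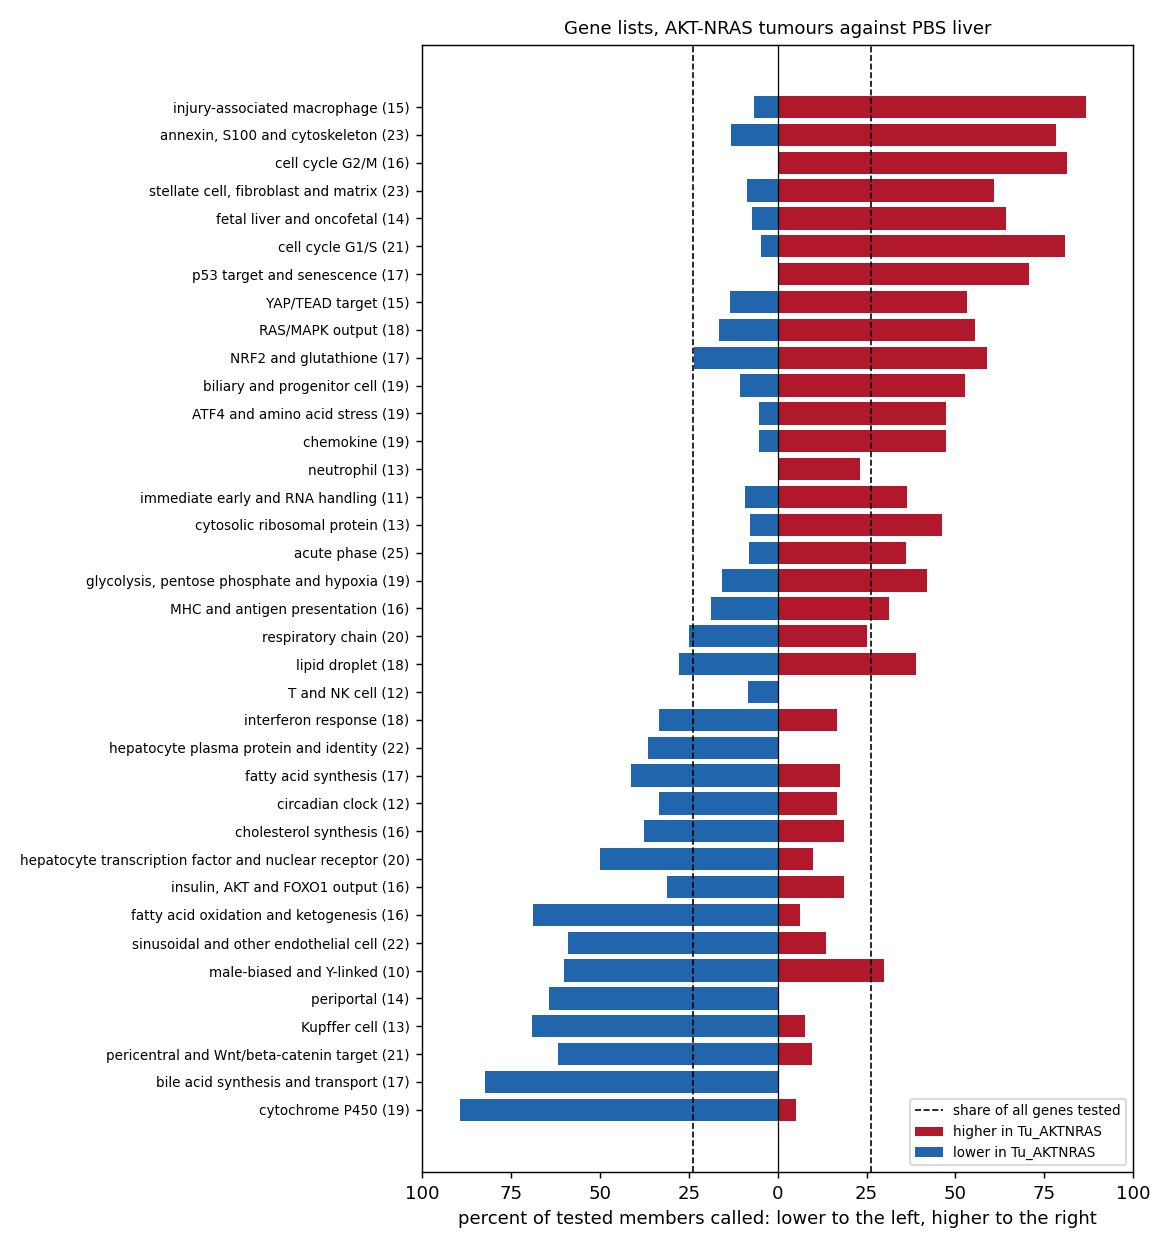
Share of the tested members of each gene list of at least 10 tested genes that were called higher (red, right) or lower (blue, left) in Tu_AKTNRAS against PBS_only, with the number tested in brackets and the lists ordered by median log2 fold change. Dashed lines mark the shares over all genes tested, 26.2% higher and 23.8% lower, and the cell cycle and injury-associated macrophage lists lie far to the right of them while P450 and bile acid lists lie far to the left.

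The 4 tumours differed among themselves in these hepatocyte genes. Tumour 2 was the lowest tumour in 16 of 19 P450 genes and 17 of 21 pericentral genes, and tumour 1 was the highest in 15 of 19 and 15 of 21. The mean P450 level was 11.08, 8.45, 9.89 and 10.27 in tumours 1 to 4, and 12.02 to 12.22 in the PBS livers. In the glycolysis and hypoxia list tumour 2 was instead the highest in 15 of 19 genes. The 5 called genes with the largest SD among tumours were *Cyp2c37*, *Cyp2c50*, *Reg3b*, *Fxyd3* and *Sult2a6*. *Reg3b*, a secreted C-type lectin of injured epithelium, read 4.53, 10.36, 8.84 and 7.87 in Tu_AKTNRAS and 4.45, 4.45 and 4.38 in PBS_only, so it was above background in 3 of 4 tumours. *Fxyd3*, an ion pump regulator of epithelia, read 7.71, 11.58, 9.93 and 6.56 against 5.29, 5.96 and 5.71. *Sult2a6*, a steroid sulfotransferase, read 9.03, 5.29, 5.11 and 8.87 against 12.92, 12.43 and 8.42. The raw median signal moved with the P450 level, lowest in tumour 2 and highest in tumour 1, and its part in the spread was not tested. Without tumour 2, 15 P450 genes, 10 pericentral genes and 11 bile acid genes were called lower.

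**Figure D3:**
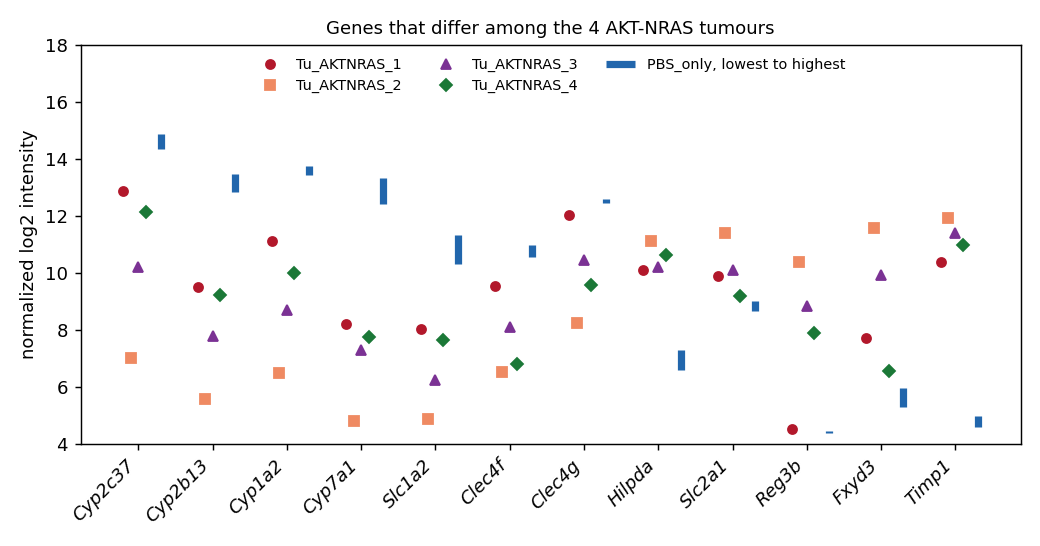
Normalized log2 intensity in each of the 4 Tu_AKTNRAS samples (markers) and the lowest to highest PBS_only value (blue bar) for 12 genes, chosen after their values were seen. Tumour 2 lies lowest in the P450 genes, *Cyp7a1* and *Slc1a2*, and highest in *Slc2a1*, *Reg3b*, *Fxyd3* and *Timp1*.

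Of the fetal liver and oncofetal list, 14 of 22 genes were tested, 9 were higher and 1 lower, with a median of 1.51. *Gpc3*, the oncofetal glypican 3, read 11.38, 11.27, 11.20 and 11.22 in Tu_AKTNRAS, against 6.71, 6.10 and 5.60 in PBS_only. *Igf2*, a fetal growth factor, read 10.60, 10.49, 10.03 and 7.01 against 6.99, 6.39 and 6.71, so tumour 4 was barely above the highest PBS liver. Its call was lost under 3 of 18 alternatives. *Lpl* rose by 2.75 ± 0.36. The biliary and progenitor list was higher in 10 and lower in 2 of 19 tested genes, with a median of 0.86. The 2 lower genes were *Prom1* (1.63-fold) and *Ncam1* (1.49-fold). *Sox9*, a factor of bile ducts and progenitors, read 9.02, 9.28, 9.10 and 8.90 against 4.57, 4.60 and 4.46, at least 12.5-fold higher, and *Cftr*, a chloride channel of duct cells, 9.65, 9.69, 10.34 and 9.06 against 4.39, 4.96 and 4.41, at least 19-fold higher. The duct keratins did not follow them: *Krt19* read 5.65, 4.94, 6.04 and 4.48 in Tu_AKTNRAS and 4.42, 4.63 and 4.55 in PBS_only, above background in 2 of 4 tumours and 0 PBS livers, and *Krt7* changed by 0.12 ± 0.63. *Epcam* and *Spp1* were not among the genes tested. The summed intensity of the biliary list was 38778 to 60023 in Tu_AKTNRAS and 20368 to 23939 in PBS_only, and the part of duct cells in these rises was not tested.

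YAP/TEAD targets were higher in 8 and lower in 2 of 15 tested cases, with a median of 1.28, and the annexin, S100 and cytoskeleton list in 18 and 3 of 23, with a median of 2.13. *Ankrd1*, a classical YAP target, read 10.70, 10.92, 10.64 and 9.26 in Tu_AKTNRAS, against 5.13, 5.91 and 5.99 in PBS_only. *Ccn2*, the matricellular connective tissue growth factor, read 14.64, 14.25, 14.20 and 14.54 against 11.53, 10.83 and 10.80. *S100a11*, a calcium-binding protein, read 13.73, 13.80, 14.28 and 13.87 against 8.61, 8.69 and 8.27, a rise of 5.40 ± 0.30. All tumours were above all PBS livers in the 3 genes, as in 28.7% of all genes. *Anxa2* and *Anxa5* rose by 4.03 ± 0.25 and 3.67 ± 0.29. *Gadd45b* and *Nt5e* of the YAP list fell by 2.23 ± 0.41 and 1.55 ± 0.32, and median scaling ended the call of *Nt5e*. The letters of a TEAD-type element, CATTCC, were in 14.7% of all promoters and, in any of their promoters, in 8 of 16 genes of the YAP list. These are again unlike units. Of the 8, 4 were called higher, as were 6 of the 16. The letters are shown in capitals for *Ankrd1* at chr19:36119926-36120003 (minus strand), where the match is on the opposite strand, and for *Ccn1*, which rose by 2.30 ± 0.33, at chr3:145650047-145650124 (minus strand).
Ankrd1: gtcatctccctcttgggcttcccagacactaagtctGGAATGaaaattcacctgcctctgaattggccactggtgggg
Ccn1: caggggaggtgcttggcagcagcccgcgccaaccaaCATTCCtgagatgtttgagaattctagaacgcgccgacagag

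Matrix genes were higher in the tumours. Of 23 tested stellate cell, fibroblast and matrix genes 14 were higher and 2 lower, with a median of 1.60. Against Tu_AKTCAT 16 were higher and 0 lower, where 20.6% and 16.9% of all genes were. *Col3a1*, a fibrillar collagen, read 9.66, 9.30, 9.40 and 9.57 in Tu_AKTNRAS and was not well above background in PBS_only (4.57, 4.67 and 4.56), at least 16.6-fold higher. *Acta2*, the smooth muscle actin of myofibroblasts, read 12.02, 11.99, 12.07 and 11.31 against 7.61, 7.98 and 8.02. *Sparc* rose by 3.89 ± 0.34. Genes of quiescent stellate cells had other values: *Lrat*, which stores retinol, was lower at 6.37, 5.29, 5.33 and 5.40 against 6.94, 6.81 and 6.45, a call lost under 6 of 18 alternatives, and *Des* and *Reln* changed by 0.19 and 0.07 and did not pass. With median scaling *Des* was called higher (1.09 ± 0.29, adjusted p = 0.00185). The summed intensity of the list was 35736 to 50019 in Tu_AKTNRAS and 11176 to 12543 in PBS_only, and the part of stellate cell number in this rise was not tested.

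More endothelial genes were lower than higher. Of 22 tested endothelial genes 13 were lower and 3 higher, with a median of -1.10, and 7 were lower with median scaling. *Dnase1l3* read 7.55, 5.52, 6.86 and 6.86 in Tu_AKTNRAS, against 10.09, 10.80 and 10.74 in PBS_only, and the scavenger receptor *Stab2* 7.5, 5.81, 6.85 and 5.80 against 9.17, 9.33 and 9. Both belong to the sinusoidal lining, and both were lower in every tumour, as were 24.6% of all genes. *Lyve1* and *Kdr* of the same list were 1.55-fold and 1.18-fold higher and did not pass. The summed intensity of the list was 4950 to 9133 in Tu_AKTNRAS and 13840 to 14762 in PBS_only, and the part of endothelial cell number was not tested. Markers of other vessels were split: *Emcn* rose by 1.75 ± 0.35 and *Cd34* by 1.31 ± 0.23, while *Vwf* fell by 1.58 ± 0.35. Of the genes shared by endothelial cells, *Tek* fell by 1.40 ± 0.37 and *Tie1* by 1.17 ± 0.26, and *Cdh5* and *Pecam1* changed by -0.69 and -0.56 and did not pass. Median scaling ended the calls of *Vwf*, *Tek* and *Tie1*. *Cdh5* was called lower when only the compared groups were fitted (adjusted p = 0.0288) or only their arrays were normalized (adjusted p = 0.0333).

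Macrophage genes moved in opposite directions. Of 13 tested Kupffer cell genes 9 were lower and 1 higher, with a median of -1.54, and of 15 injury-associated macrophage genes 13 were higher and 1 lower, with a median of 2.46. *Clec4f*, a receptor of Kupffer cells, read 9.53, 6.50, 8.08 and 6.81 in Tu_AKTNRAS, against 10.98, 10.55 and 10.92 in PBS_only, and *Vsig4*, a complement receptor, 10.48, 7.08, 8.65 and 6.87 against 11.01, 10.65 and 10.77. Tumour 1 stayed nearest to the PBS livers in both. *Adgre1*, the general macrophage marker F4/80, was the member that rose, by 0.99 ± 0.28, and it lost this call with the mean of its probes (adjusted p = 0.096). *Lyz2*, lysozyme, read 11.27, 11.53, 11.56 and 11.60 against 7.84, 7.82 and 7.69, and *Cd63*, a lysosomal tetraspanin, 12.55, 13.12, 12.74 and 12.81 against 8.94, 9.03 and 8.70. *Mmp12*, macrophage elastase, was at least 4.85-fold higher. *Gpnmb* changed by 0.34 and did not pass. The summed intensity was 7471 to 13626 in Tu_AKTNRAS and 20130 to 20485 in PBS_only for the Kupffer list, and 47325 to 56088 and 14825 to 15741 for the injury list. *Fabp5*, *Cd63* and *Lpl* of the injury list are not particular to macrophages, and which cells carried them was not tested.

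In the neutrophil list 3 of 13 tested genes were higher (23.1%, against 26.2% over all genes) and 0 lower, and *Lcn2*, named above, was one of the 3. *S100a8* rose by 3.53 ± 0.64 and *S100a9* by 3.04 ± 0.69, the 2 subunits of calprotectin, while the granule genes *Ngp* and *Mpo* were not well above background on any of the 7 arrays and *Camp* and *Elane* changed by -0.24 and -0.06 and did not pass. Of 12 T and NK cell genes 0 were higher and 1, *Zap70*, was lower (-3.85 ± 0.45). *Cd3d*, *Cd3e* and *Cd3g*, the receptor chains of T cells, changed by -0.34, 0.11 and -0.04. Of 6 B cell genes 0 were higher and 1 lower. Of 19 chemokine genes 9 were higher and 1 lower: *Cxcl1*, which attracts neutrophils, read 12.88, 12.80, 13.08 and 13.20 in Tu_AKTNRAS, against 10.24, 9.80 and 9.88 in PBS_only, and *Ccl2*, which attracts monocytes, was at least 4.36-fold higher, while *Cxcl12* fell by 1.37 ± 0.20. Interferon response genes were higher in 3 and lower in 6 of 18 tested cases. The lower count was 2 with median scaling and 3 without PBS_only replicate 1. In this list 50% were called, against 50.0% of all genes. *Ifit2* rose by 2.03 ± 0.49 and *Igtp* fell by 2.10 ± 0.45. Of 16 MHC and antigen presentation genes 5 were higher and 3 lower, which at 50% called is also the share over all genes (50.0%). With median scaling 0 were lower, and without PBS_only replicate 1 it was 1.

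Acute phase genes were higher in 9 and lower in 2 of 25 tested cases (44% called, against 50.0% of all genes), with a median of 0.41. *Orm2*, an orosomucoid, read 13.07, 14.05, 13.61 and 14.05 in Tu_AKTNRAS, against 9.76, 9.94 and 10.66 in PBS_only. *Hamp*, the iron hormone hepcidin, read 12.94, 9.74, 11.88 and 12.52 against 14.44, 14.09 and 14.43. The groups did not overlap in either gene, as in 53.3% of all genes, and the 2 genes moved in opposite directions. The haptoglobin gene *Hp* and the C-reactive protein gene *Crp* changed by -0.21 and 0.41 and did not pass. With the mean of its probes *Hp* was called higher (1.26 ± 0.18, adjusted p = 1.03e-06), so its probes disagree. Against Tu_AKTCAT, 15 of the 25 genes were higher in Tu_AKTNRAS and 2 lower, where 20.6% and 16.9% of all genes were.

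Sex-biased liver genes differed as follows. Of 6 tested female-biased genes 5 were lower, with a median of -4.50, among them *Acot3*, *Cyp2b13* and *Cux2* of the largest falls above. Of 10 male-biased or Y-linked genes 3 were higher and 6 lower, or 3 lower without PBS_only replicate 2 or 3. *Cyp2d9*, a male-biased P450 in mouse liver, read 12.43, 12.37, 12.18 and 12.47 in Tu_AKTNRAS, against 7.58, 8.31 and 7.75 in PBS_only. *Cyp4a12a*, likewise male-biased, read 9.23, 8.22, 9.85 and 8.18 and was not well above background in PBS_only (4.89, 4.76 and 4.60), at least 10.8-fold higher. *Hsd3b5*, also male-biased, was lower, at 4.71, 4.61, 4.52 and 4.56 against 5.09, 7.38 and 7. *Xist*, the RNA that coats the inactive X chromosome of females, read 8.86, 8.99, 9.22 and 9.67 in Tu_AKTNRAS and 8.67, 9.18 and 9.31 in PBS_only, overlapping ranges with a change of 0.13 ± 0.31. With median scaling its change was 0.83 (adjusted p = 0.0491). The Y-linked *Uty* read 5.49, 5.33, 5.05 and 5.34 in Tu_AKTNRAS, against 5.53, 6.14 and 6.21 in PBS_only, and was lower by -0.66 ± 0.22 (adjusted p = 0.0123), a call lost under 3 of 18 alternatives. *Cyp2d9* was also high in Tu_AKTCAT, at 12.67, 11.69, 12.06 and 11.64. Whether sex composition differed between the groups was not tested.

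The remaining lists were mixed. Of 17 tested NRF2 and glutathione genes 10 were higher and 4 lower, with 1 lower under median scaling and 2 without PBS_only replicate 1 or Tu_AKTNRAS replicate 1 or 4. *Gstp1*, a glutathione transferase, rose by 2.24 ± 0.31 and *Gclc*, which limits glutathione synthesis, by 1.51 ± 0.25. Of 20 respiratory chain genes 5 were higher and 5 lower (50% called, against 50.0% of all genes), with a median of -0.05. The lower count ranged from 2 to 6 over the alternatives. Of 13 ribosomal protein genes 6 were higher and 1 lower (53.8% called), the higher count being 3 with median scaling.

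Last, the changes were set against those of the AKT-CAT tumours, which share the PBS livers as controls, by testing Tu_AKTNRAS against Tu_AKTCAT directly in the same fit. Of the 10765 genes 4031 (37.4%) differed, 2214 (20.6%) higher and 1817 (16.9%) lower in Tu_AKTNRAS. Slide differed here too and cannot be told apart from the driver. *Afp* was the largest difference among the named genes, at 11.13, 12.31, 11.48 and 11.57 in Tu_AKTNRAS and not well above background on any Tu_AKTCAT array (4.67, 4.42, 4.61 and 4.41). *Akr1c18* read 11.70, 11.14, 11.14 and 11.69 against 5.86, 4.33, 4.34 and 4.43, and *Cftr* 9.65, 9.69, 10.34 and 9.06 against 4.56, 4.57, 4.47 and 5.15. *Tspan8* and *Wfdc3* differed by 6.05 ± 0.72 and 4.91 ± 0.46, and both were above background in 2 of 4 Tu_AKTCAT arrays. In the other direction, *Cyp7a1* read 8.20, 4.79, 7.27 and 7.74 in Tu_AKTNRAS and 12.65, 12.54, 13.07 and 13.35 in Tu_AKTCAT, a difference of -5.91 ± 0.43. *A1bg*, *Cyp8b1*, *Notum* and *Slc1a2* differed by -5.06 ± 0.65, -4.45 ± 0.76, -4.22 ± 0.47 and -3.91 ± 0.61. *Ly6d* did not pass this test, with a difference of -0.13 ± 0.47 (adjusted p = 0.86). With median scaling 4513 of the called genes were higher and 946 lower, so 82.7% instead of 54.9% were higher.

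**Figure D4:**
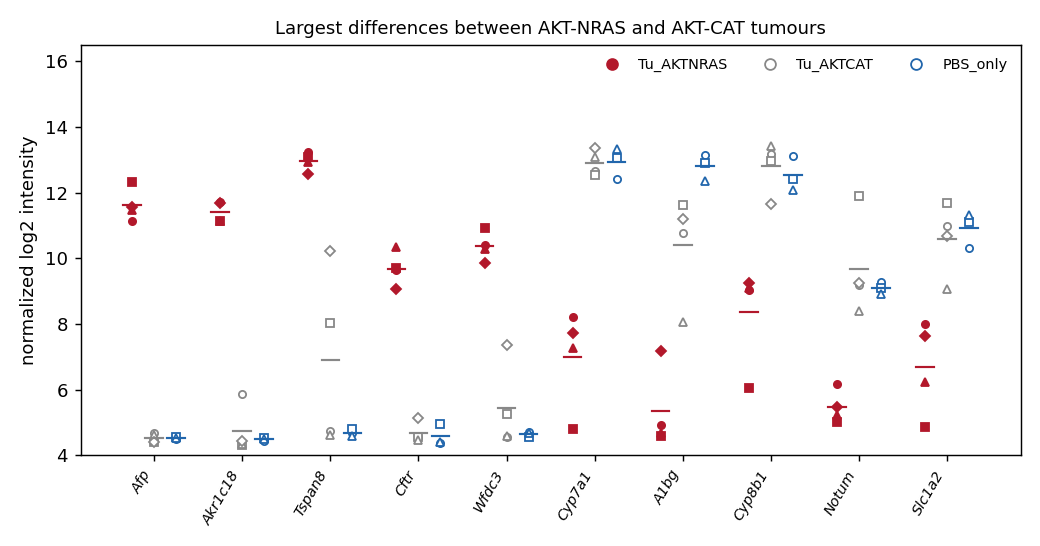
Normalized log2 intensity of the 5 largest differences in each direction between AKT-NRAS and AKT-CAT tumours among the named genes, with Tu_AKTNRAS (red, filled), Tu_AKTCAT (grey) and PBS_only (blue) from left to right and a line at each mean. In the 5 genes on the left Tu_AKTNRAS lies above both other groups, with *Tspan8* reaching 10.23 in 1 Tu_AKTCAT array, and in the 5 on the right it lies below both.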

How the data were processed

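Expression was read on 36 single-color bead arrays. Probe intensities and detection p-values were deposited without normalization, per the file headers. Between 24.8% and 30.2% of the intensities of an array were below 0, which means that some background was taken off before deposit; how is not given in the sources used here. GenomeStudio is named in the submitters' processing notes. Detection p fell with the signal column beside it in all 36 cases (0 steps out of order, against at least 7714 with any other column). The deposited series table of intensities, with medians of 14.9 to 15.3 and an unstated normalization, served only as an alternative.

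Signals were processed with neqc of limma 3.58.1 in R 4.3.3 (offset 16, quantile normalization). Probes with a detection p under 0.05 on at least 3 of 36 arrays and 1 gene name were kept (14754), and the probe with the highest mean stood for its gene. All arrays entered 1 limma fit with 10 groups. Contrasts were tested two-sided with Benjamini-Hochberg adjustment over all genes, called at 0.05. Bounds (at least N-fold) used the lowest detected intensity of each array. The script was tested on simulated data. The highest correlation of unnormalized signals between any 2 of the 7 arrays was 0.984.

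Members and lists were chosen with earlier results of these data known. Named were the drivers, the 15 largest rises and falls with values that do not overlap, up to 6 called members of a list in each direction with its defining members, the 5 genes with the largest SD over tumours, and the 5 largest driver differences each way; members named as not passing, *Ccn1*, *Vwf*, *Tek*, *Tie1*, *Mcm5* and *Mcm6* were chosen after their values were seen. Alternatives were median scaling, no background model, other filters, smaller fits, other variance priors, replicate and slide blocks, the series table, mean of probes and leaving out each array. Figures used Python 3.11.15 and matplotlib 3.10.9.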

Additional observations from a re-analysis of the deposited data

Results flagged for a closer look

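Among the 4 Tu_AKTNRAS arrays, the one farthest from the others was examined for 173 named genes tested. *Arhgap44*, *Prom1*, *Ncam1*, *Lyve1* and *Kdr* were not among them. Of the 173 genes, 12 had 1 tumour set apart by most of the group's range (Dixon's criterion, which chance meets in about 1 of 20 groups). Tu_AKTCAT arrays were not examined in this way. Tumour 4 stood apart in *A1bg* (7.19, the only tumour above background), *Acta2* (11.31), *Ankrd1* (9.26) and *Igf2* (7.01), and was the lowest tumour in the last 3. Tumour 1 stood above the others in *Asl* (8.1), *Gstp1* (14.95) and *Lrat* (6.37) and below them in *Cyp1b1* (10). Tumour 2 stood below the others in *Cyp8b1* (6.05) and *Akt1* (4.44) and above them in *Pdk1* (7.75) and *Elane* (5.25). *Akt1* was not above background on any tumour array, and *Elane* was on 1.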

How the results depend on the processing

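The 5387 calls against PBS_only became 5203 to 5791 under the settings that kept all arrays and 4782 to 5063 when 1 array was left out. The 4031 driver differences became 3792 to 5459, and 3507 to 3772 with 1 array left out. The 391 called list members became 378 to 403, and 339 to 376 with 1 array left out. Of the 142 named genes called against PBS_only, 127 kept the call under every alternative run, and of the 31 named genes not called, 9 were called under at least 1. Of the 115 named genes whose driver difference was called, 35 lost it under at least 1 alternative. *Arhgap44*, *Prom1*, *Ncam1*, *Lyve1* and *Kdr* were not followed through the alternatives and are not in these counts. Median scaling gave 4435 higher and 1356 lower genes against PBS_only, and 4513 higher and 946 lower against Tu_AKTCAT. With the mean of its probes, the change of *Hp* against PBS_only reversed to 1.261, from -0.21, and its driver difference to 0.026, from -0.70; the cause was not tested. Replicate numbers did not pair the samples (correlations of deviations 0.127, -0.052 and 0.022 for equal numbers), and with a replicate block 5296 genes, 4019 driver differences and 387 list members were called. With slide as a random block 5465 genes were called, but this block does not separate slide from group. Precision is limited by 4 and 3 arrays and, for dim probes, by background.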

Other observations

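Clock and early response genes were not described above. Of 12 tested circadian clock genes 2 were higher and 4 lower in Tu_AKTNRAS (50% called, against 50.0% of all genes), with a median of -0.32. The higher count was 1 without PBS_only replicate 2 or 3 or Tu_AKTNRAS replicate 1. Of 11 immediate early and RNA handling genes 4 were higher and 1 lower (45.5% called), and 2 were higher without PBS_only replicate 2. Time of sampling is not given in the labels. Of 6 erythroid genes 2 were higher and 0 lower (33.3% called), or 1 higher without PBS_only replicate 1 or Tu_AKTNRAS replicate 2. The summed erythroid intensity overlapped between groups, at 6340 to 25661 in Tu_AKTNRAS and 6588 to 16255 in PBS_only.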
